A study of Saccharomyces cerevisiae with 50 samples.

Results

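The genes described here encode the nuclear subunits of the yeast respiratory chain. The rule goes by gene name and takes the nuclear genes of succinate dehydrogenase (complex II, 4 genes), the cytochrome bc1 complex (complex III, 9 genes), cytochrome c oxidase (complex IV, 9 genes), ATP synthase (13 genes), cytochrome c (2 genes) and the NADH dehydrogenases Nde1 and Ndi1 (2 genes). The mRNA counts of the deletion strains covered 5743 genes and the ribosome footprint counts 5666, with all 39 in both, and each of them passed the filter on low counts in every comparison. The study measured mRNA by sequencing (mRNA-seq) and ribosome footprints (Ribo-seq) in Saccharomyces cerevisiae strains that lack a ribosomal protein gene, and mRNA in strains that overexpress the transcription factor Gcn4. The 50 samples fell into 17 groups of 3 biological replicates, with 2 for the footprints of Δrpl6a.

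All strains were haploid BY4741 MATa derivatives that carry his3Δ1, leu2Δ0 and ura3Δ0. The wild type and the 5 deletion strains Δrpl7a, Δrpl9a, Δrpl6a, Δrpl15b and Δrps27b also carried met15Δ0, and each deletion strain had kanMX4 in place of the ribosomal protein gene. The study describes Δrpl7a and Δrpl9a as long-lived in replicative lifespan and the other 3 deletion strains as short-lived. In PADH1-GCN4 the constitutive ADH1 promoter replaced the promoter and 5′ leader of GCN4, and in the S242L strain the same construct carried an amino acid substitution in Gcn4. Both were compared with wt_met, which like them lacks the met15 deletion. In PGAL-GST-GCN4 a GST fusion of Gcn4 was expressed from the GAL1-10 promoter on the multicopy URA3 plasmid pEGH, and its control wt_ura3 carried the empty multicopy URA3 plasmid pRS426. Each deletion came from a strain collection and no second isolate was sequenced, so the deleted gene and any other difference between isolates cannot be told apart. Cultures were grown in rich glucose medium at 30 °C to mid-log phase unless stated otherwise.

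The respiratory chain passes electrons from NADH and succinate through ubiquinone, complex III and cytochrome c to oxygen at complex IV, and ATP synthase uses the resulting proton gradient. Saccharomyces cerevisiae has no proton-pumping complex I and oxidises NADH with the simple dehydrogenases Ndi1, which faces the mitochondrial matrix, and Nde1, which faces the intermembrane space. When glucose is plentiful the cells ferment and many of these genes are held low, and their transcription on other carbon sources depends largely on the Hap2/3/4/5 complex, which recognises CCAAT and whose limiting subunit is Hap4.

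Stretches around the motif CCAAT are shown for 8 members, since this sequence is what most of the members share and the rule did not use it. In the 300 bases from 250 before to 50 after each RefSeq gene start in the assembly R64, CCAAT or its reverse complement ATTGG was present in 33 of 39 members (84.6%) and in 2601 of 6002 protein-coding genes (43.3%). The 25-base stretches read 5′ to 3′ on the strand of the gene, with a CCAAT match in capitals. The stretch of SDH2 also holds ATTGG, left in lower case.
SDH2, chrXII:54071-54095, minus strand: tcgcattggcCCAATtagctccggt
NDI1, chrXIII:30020-30044, minus strand: ttcattcggaCCAATcatatgaagg
QCR2, chrXVI:919186-919210, plus strand: tcccaacgaaCCAATagaaggcccg
QCR10, chrVIII:107617-107641, plus strand: tgattttgatCCAATtaaaactaaa
COX5A, chrXIV:531545-531569, plus strand: caaaaatcgtCCAATagacgttttc
COX12, chrXII:225363-225387, minus strand: ataacattgaCCAATcaattttcag
ATP3, chrII:315370-315394, plus strand: tgatggagaaCCAATgagcggcgag
ATP17, chrIV:1228372-1228396, plus strand: acggagagaaCCAATcatatcgaag

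All 4 genes of complex II, 7 of 9 of complex III, 8 of 9 of complex IV, 12 of 13 of ATP synthase and both NADH dehydrogenase genes held the motif in this window. COR1, CYT1, COX4, ATP1, CYC1 and CYC7 did not. The Gcn4 motif TGACTC, read also as GAGTCA, was present in 1 member (2.56%) and in 479 of all genes (7.98%). That member was COX9, which also held CCAAT in the same window. A motif match describes letters in a window and no match describes only their absence from it. In a window of 500 bases before the start, chosen after seeing the data, the shares of members were 92.3% for CCAAT and 10.3% for TGACTC, against 67.1% and 14.3% of all genes.

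Total counts per library ran from 5709195 to 12696200 in the 18 mRNA libraries of the deletion set, from 8092039 to 15437373 in the 17 footprint libraries, and from 10722664 to 25642672 in the Gcn4 set. The deleted genes served as a check of the labels. Their mRNA in the matching deletion strain lay between 0.433 and 4.28 CPM (a gene's count per 1e+06 counts of the library, after TMM scaling), against 46.2 to 2457 CPM in the wild type. Footprints on RPL15B in Δrpl15b were the highest remainder, at 8.7 to 16.5 CPM against 67.2 to 82.5 CPM. CPM are shares of the counted RNA, so total RNA per cell, and a shift in every cell or in some cells, cannot be told apart. The edgeR p-values below set each difference against the spread between replicate libraries within strains, estimated over all groups of a fit.

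In wild-type cells the members ranged from nearly silent to among the abundant messages. Per kilobase of coding length their mRNA level ran from 4.6 to 386 CPM with a median of 128, and the median member stood at percentile 79 of all genes. QCR7, a small subunit of complex III, was highest at 386 ± 70 CPM per kilobase (SD, n = 3), followed by the ATP synthase genes ATP1 (the F1 alpha subunit) at 359 ± 47.4 and ATP5 (the OSCP subunit of the stalk) at 352 ± 28.6, and these 3 levels differed by less than the SD of QCR7. CYC7, which encodes iso-2-cytochrome c, was lowest at 4.6 ± 0.74, below NDI1 at 17.8 ± 2.5 and SDH1 at 18.2 ± 1.5, and the last pair did not differ beyond their spread. The ratio of footprint to mRNA CPM had a median of 1.05 over the members and 0.692 over 4930 genes with at least 10 mRNA CPM. It was lowest for QCR6, the acidic subunit of complex III, at 0.0772 and highest for the small ATP synthase subunit gene ATP18 at 3.45.

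In Δrpl7a the mRNA of 38 of 39 respiratory chain genes lay above the wild type. Among the multi-subunit complexes the medians were largest in complexes II and III (log2 1.76 and 1.61). The 2 NADH dehydrogenase genes had a median of 1.73. The 2 cytochrome c genes had a median of 2.615, with values of -0.19 and 5.42. Genes counted as called passed 0.01 in adjusted p and changed over 2-fold. Of the 39 members 18 were called higher and none lower, with 12.3% of all 5490 genes called higher, and DESeq2 called the same number. Without the fold minimum 36 members passed in the higher direction, against 24.3% of all genes. The median log2 fold change was 0.88 over the members and 0.03 over all genes. All 4 genes of complex II and all 9 of complex III were called, but 2 of 9 of complex IV and 1 of 13 of ATP synthase.

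**Figure D1:**
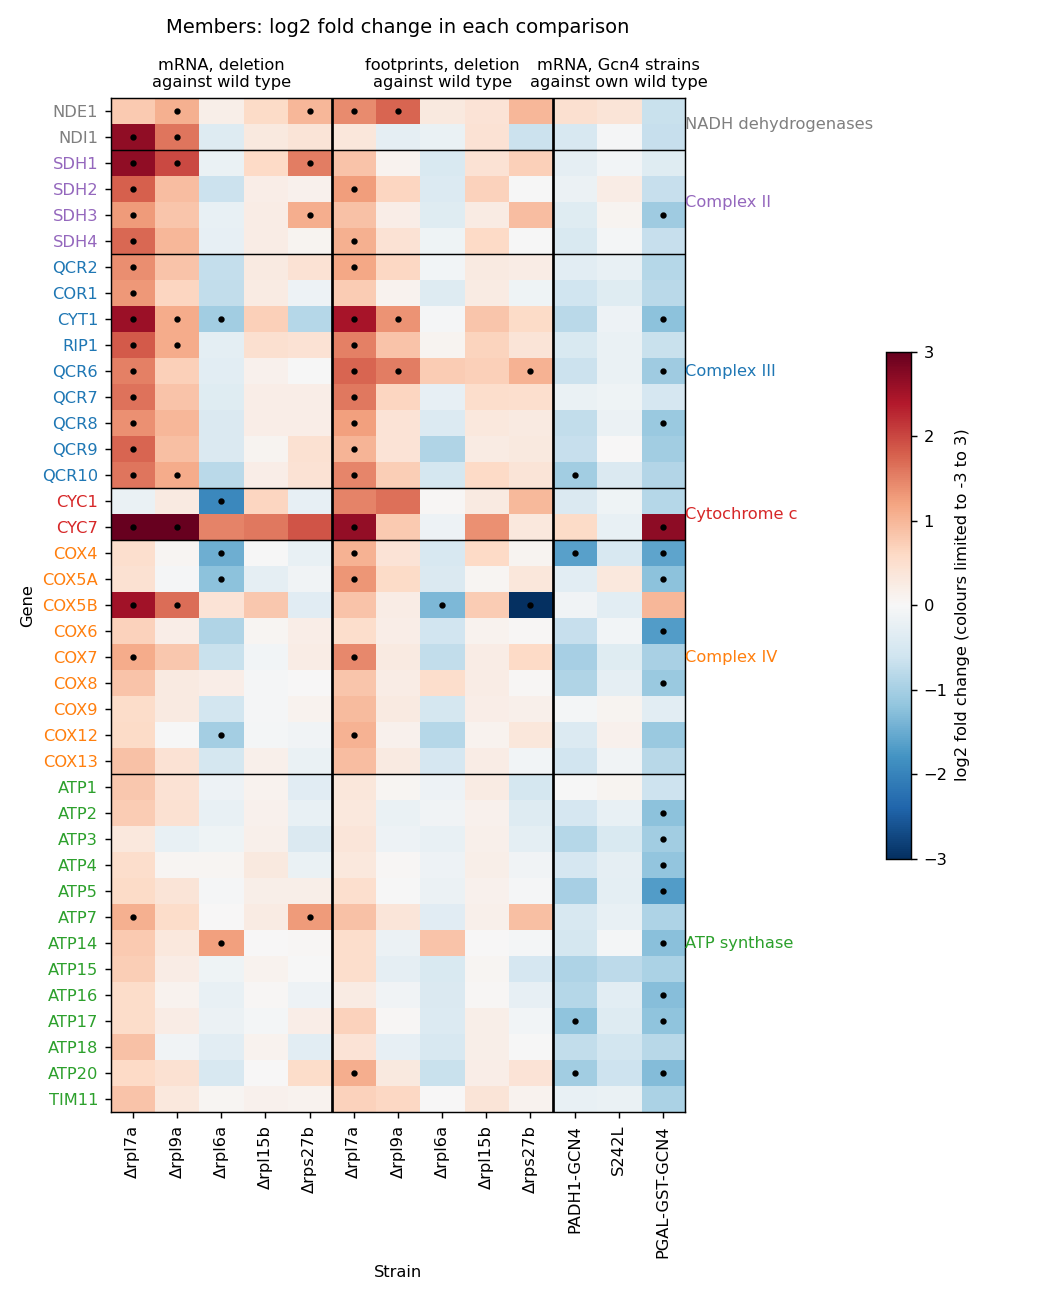
Log2 fold changes of the 39 members (rows, grouped by complex) in each comparison against its control (columns), with called values marked by dots and colours limited to -3 and 3. The Δrpl7a mRNA column is positive for 38 of 39 genes and the PADH1-GCN4 and PGAL-GST-GCN4 columns are negative for 37 of 39 genes each.

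Among the electron donors to ubiquinone, NDI1 (YML120C) mRNA stood at 23.4, 27.9 and 31.2 CPM in the 3 wild-type libraries and at 209, 209 and 106 CPM in Δrpl7a. Every Δrpl7a library lay above every wild-type library, with replicate 3 the lowest of them. The fitted difference was 2.67 on the log2 scale (SE 0.27, edgeR quasi-likelihood adjusted p = 8.6e-07). SDH1 (YKL148C), the flavoprotein subunit of succinate dehydrogenase, moved alike, from 32.3, 34.5 and 38.2 CPM to 276, 244 and 140 CPM (log2 2.65, SE 0.31, adjusted p = 3.98e-06). The iron-sulfur subunit gene SDH2 rose by log2 1.80, and the membrane anchor genes SDH3 and SDH4 rose by 1.27 and 1.71. NDE1 (YMR145C), the external NADH dehydrogenase, was higher by 0.79 (SE 0.13), under the fold minimum.

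Within complex III the largest rise was that of CYT1 (YOR065W), which encodes cytochrome c1. It stood at 44.3, 45.5 and 52.3 CPM in the wild type and at 289, 286 and 264 CPM in Δrpl7a (log2 2.56, SE 0.21, adjusted p = 1.48e-07). The Rieske iron-sulfur protein gene RIP1 rose from 20.5 to 24.6 CPM to 68.2 to 86.0 CPM, a log2 change of 1.84. The core protein genes COR1 and QCR2 and the small subunit genes QCR6 to QCR10 rose by 1.31 to 1.74.

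Complex IV and ATP synthase had medians of 0.70 and 0.74. COX5B (YIL111W), the subunit 5 isoform used at low oxygen, rose from 32.0, 37.1 and 17.7 CPM to 215, 172 and 108 CPM (log2 2.51, SE 0.32, adjusted p = 8.61e-06), whereas its aerobic counterpart COX5A differed by 0.46. COX7 was called at 1.11 but fell under the fold minimum without wild-type replicate 1 (0.97) or Δrpl7a replicate 1 (0.99). ATP7 (YKL016C), a subunit of the peripheral stalk of ATP synthase, was called at 1.06 and dropped to 0.95 without wild-type replicate 3. The other 12 ATP synthase genes lay between 0.31 for ATP3 (the F1 gamma subunit) and 0.88 for ATP18, and all but ATP3 passed the test without a fold minimum.

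Of the cytochrome c genes CYC7 was called and CYC1 was not. CYC7 (YEL039C) was at 1.73, 1.71 and 1.28 CPM in the wild type and at 93.1, 86.2 and 24.1 CPM in Δrpl7a, a log2 change of 5.42 (SE 0.60, adjusted p = 2.41e-06). Replicate 3 again carried the lowest value of the deletion strain but stood far above the wild type. CYC1 (YJR048W), which encodes the aerobic iso-1-cytochrome c, stood at 19.3 to 24.9 CPM in the wild type and 12.7 to 26.9 CPM in Δrpl7a, with overlapping groups and an adjusted p of 0.577. Replicate 3 of Δrpl7a was also the lowest for HSP12, a glucose-repressed stress gene outside the chain, at 501 CPM against 1830 and 1318 CPM, with 4.08 to 7.12 CPM in the wild type. The part of a difference in growth phase between cultures was not tested.

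By library, the median shift of the 39 members in Δrpl7a mRNA was 0.91 ± 0.10 (SD, n = 3) on the log2 scale with a pseudocount of 0.5 CPM, against 0.00 ± 0.02 in the wild type. The members made up 0.785% to 0.822% of all counts in Δrpl7a and 0.351% to 0.36% in the wild type. For footprints the shares were 0.603% to 0.635% and 0.342% to 0.385%.

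**Figure D2:**
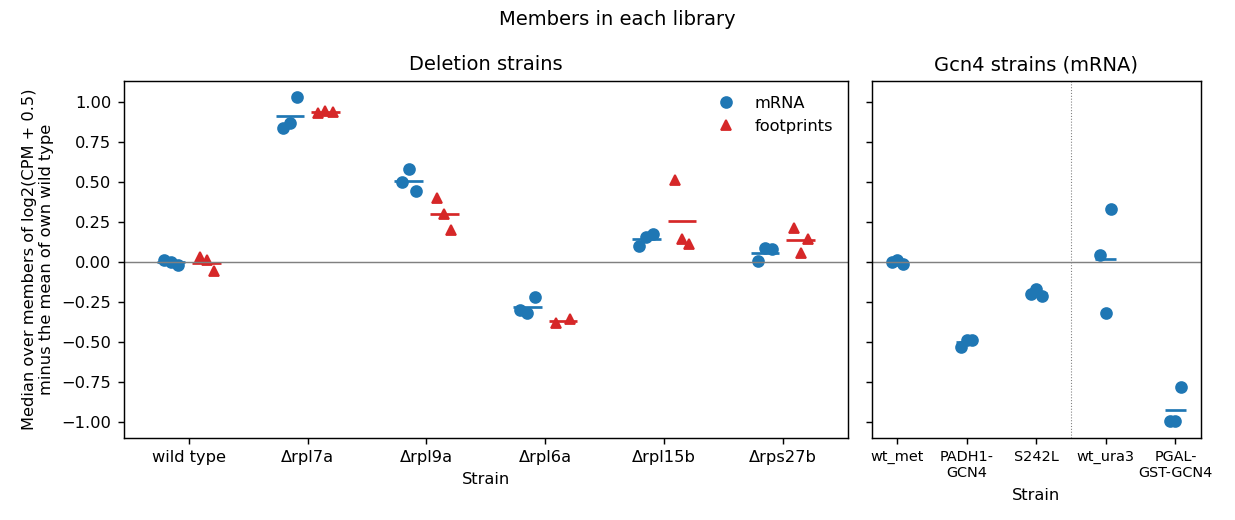
Median over the 39 members of log2(CPM + 0.5) in each library minus the mean of its own wild type, for mRNA and footprints of the deletion strains (left) and mRNA of the Gcn4 strains (right). Each point is 1 library and each bar a mean, and the 3 Δrpl7a mRNA points lie between 0.837 and 1.029 and the 3 PGAL-GST-GCN4 points between -0.994 and -0.782.

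Footprints in Δrpl7a were higher for all 39 members. Among the multi-subunit complexes the median was largest in complex III (1.48), and the 2 cytochrome c genes had a median of 2.06. In the Ribo-seq test 17 members were called higher and none lower, with 3.67% of 5342 genes called higher, and 37 passed without the fold minimum, against 15.1% of all genes. The median over the members was 0.93 and the 3 libraries shifted by 0.929 to 0.943. CYT1 footprints stood at 23.1, 20.8 and 17.2 CPM in the wild type and at 117, 119 and 104 CPM in Δrpl7a (log2 2.48, SE 0.24, adjusted p = 7.28e-08). The rise of CYT1 was thus present in both assays, with no library out of place.

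Of complex III 8 of 9 genes were called on footprints, led after CYT1 by QCR6 at 1.74 and QCR7 at 1.58, and COR1 lay at 0.77. In complex IV the called genes were COX4 (1.05), COX5A (1.33), COX7 (1.44) and COX12 (1.04), all nuclear subunits of cytochrome oxidase. COX4 dropped to 0.88 without wild-type replicate 3 and 0.99 without Δrpl7a replicate 3, QCR9 (1.02) to 0.88 and 0.93 without the same libraries, and COX12 to 0.95 without wild-type replicate 3 and 0.98 without Δrpl7a replicate 2. COX5A footprints stood at 61.8, 69.7 and 46.5 CPM in the wild type and at 150, 144 and 152 CPM in Δrpl7a, well apart, although its mRNA had moved by less than 2-fold. NDE1 and the ATP synthase dimer subunit gene ATP20 were called as well, at 1.43 and 1.08. The remaining called genes were CYC7 at 2.63, SDH2 at 1.26 and SDH4. The rise of CYC7 was the largest of any member on footprints in this strain, from a low wild-type level of 1.19 to 2.86 CPM.

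The share of members called in translation efficiency was near that of all genes. The change in footprints relative to the change in mRNA (translation efficiency, tested as an interaction) was called lower for NDI1, SDH1, COX5B and CYC7 and higher for none, 4 of 39 members, with 10% of 5524 genes called lower. NDI1 footprints stood at 39.6, 30.7 and 36.8 CPM in the wild type and 39.3, 47.5 and 49.2 CPM in Δrpl7a, so the groups overlapped, unlike those of its mRNA. Its translation efficiency fell by 2.32 on the log2 scale (SE 0.31, adjusted p = 1.27e-06). SDH1 footprints stood at 32.8 to 35.2 CPM in the wild type and 58.3 to 67.8 CPM in Δrpl7a, and its translation efficiency fell by 1.78 (adjusted p = 0.000159).

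COX5B translation efficiency fell by 1.65 in Δrpl7a (adjusted p = 0.00137) with footprints at 72.4 to 77.1 CPM against 35.1 to 50.7 CPM in the wild type. For CYC7 it fell by 2.78 (edgeR adjusted p = 0.00386), on wild-type levels of 1.19 to 2.86 footprint CPM, and the call was lost without mRNA replicate 3 of the wild type (-2.65, adjusted p = 0.0126), mRNA replicates 1 (-2.46, adjusted p = 0.0119) or 2 (-2.55, adjusted p = 0.0103) of Δrpl7a or footprint replicate 1 of the wild type (-2.40, adjusted p = 0.0332), and with only the groups compared in the fit (adjusted p = 0.0102). The median over the members was -0.16, with 27 below 0 and 12 above. CYC1 lay on the other side of the line of equal change, with footprints of 42.6, 53.9 and 43.4 CPM against 16.7, 22.8 and 11.3 CPM and no rise in mRNA, but its translation efficiency did not pass (log2 1.67, SE 0.67, adjusted p = 0.045).

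**Figure D3:**
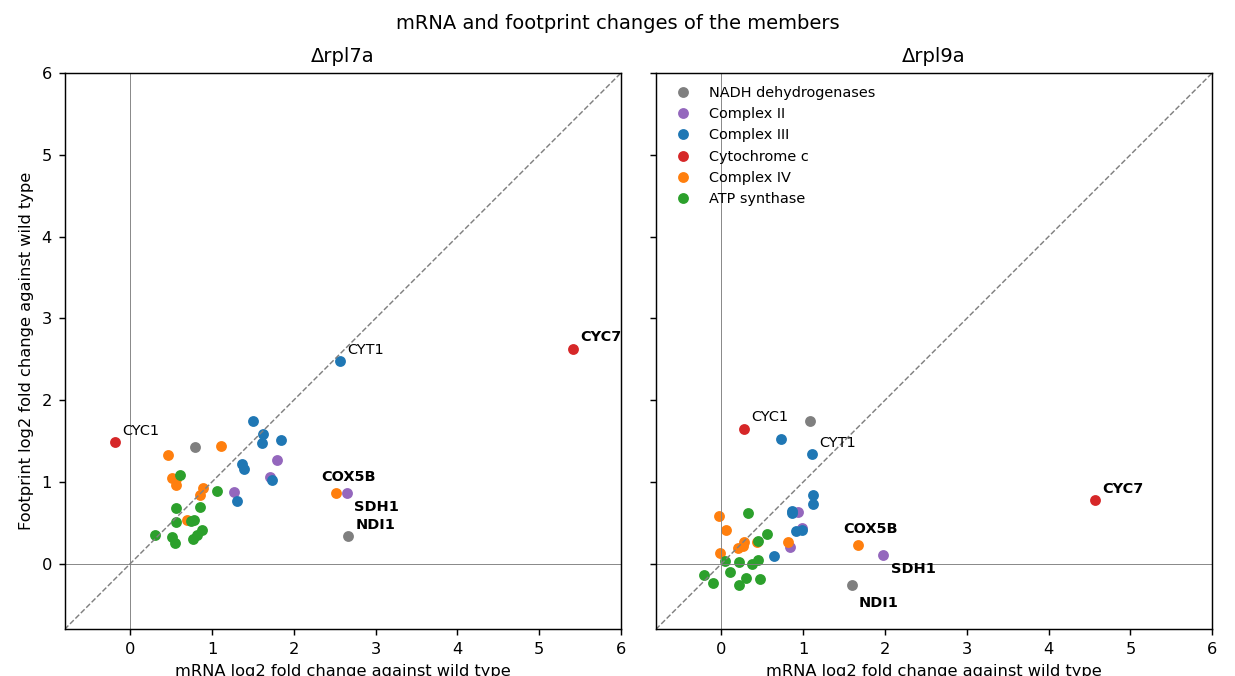
Footprint log2 fold change (y axis) against mRNA log2 fold change (x axis) for the 39 members in Δrpl7a and Δrpl9a, coloured by complex, with the line of equal change dashed and genes called lower in translation efficiency named in bold. In Δrpl7a CYT1 lies near the line at 2.56 and 2.48, whereas NDI1 lies at 2.67 for mRNA and 0.34 for footprints.

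In Δrpl9a the median of complex II was 0.96, of complex III 0.91 and of complex IV 0.26. Of the members 8 were called higher on mRNA and none lower, with 6.78% of all genes called higher, and 17 passed without the fold minimum, against 11.8%. The median was 0.47 over the members and 0.00 over all genes. Without Δrpl9a replicate 3 the count was 13. The called genes were CYT1, RIP1, QCR10, COX5B, CYC7, SDH1, NDE1 and NDI1.

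CYC7 mRNA stood at 48.2, 46.5 and 17.4 CPM in Δrpl9a, a log2 change of 4.56 (SE 0.61, adjusted p = 4.65e-05), and SDH1 and NDI1 rose by 1.98 and 1.60. Replicate 3 was the lowest library for these genes, and for NDI1 it stood at 60.8 CPM beside 94.8 and 93.9 CPM. CYT1 rose to 110, 122 and 73.5 CPM (log2 1.11, SE 0.20, adjusted p = 0.00061), RIP1 by 1.12 and QCR10, a small subunit of complex III, by 1.12. CYT1 and RIP1 fell under the fold minimum without Δrpl9a replicate 2, at 0.96 and 0.97. NDE1 mRNA was 350, 401 and 478 CPM against 183, 192 and 207 CPM, a change of 1.08 that became 0.95 without Δrpl9a replicate 3. No gene of ATP synthase was called, and their median was 0.31 (adjusted p-values from 0.00316 to 0.758).

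Footprints in Δrpl9a were called higher for 3 members, with 1.37% of all genes called higher. These were NDE1 (log2 1.74, SE 0.32, adjusted p = 0.000357), QCR6 (1.53) and CYT1 (1.34). NDE1 footprints stood at 258, 265 and 229 CPM against 85.8, 74.6 and 64.5 CPM, so both its mRNA and its footprints rose. Translation efficiency was called lower for COX5B, CYC7, SDH1 and NDI1 and higher for none, with 6.93% of all genes called lower. It fell by 1.85 for NDI1, 1.88 for SDH1, 3.79 for CYC7 and 1.45 for COX5B. The COX5B call, at an edgeR adjusted p of 0.00673, was lost without any of 7 libraries, with adjusted p-values from 0.0115 to 0.0271: mRNA replicates 1 and 3 and footprint replicate 2 of the wild type, and mRNA replicates 1 and 2 and footprint replicates 2 and 3 of Δrpl9a. It was also lost with only the groups compared in the fit (adjusted p = 0.0135). Δrpl7a and Δrpl9a were compared with the same wild-type libraries, so likeness between them is not independent, and the difference between them was not tested.

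The balance within the isoform pairs of subunit 5 and of cytochrome c is given as values, since the exact test on so few libraries cannot pass the threshold. The members of each pair resemble each other and only uniquely aligned reads were counted, so levels of these 4 genes are less certain. The mean log2 ratio of COX5A to COX5B mRNA was 0.65 ± 0.66 (SD, n = 3) in the wild type and -1.41 ± 0.39 in Δrpl7a, -1.05 ± 0.53 in Δrpl9a, -1.06 ± 0.72 in Δrpl6a and -0.50 ± 0.28 in Δrpl15b, with no overlap with the wild type in any of the 4. In Δrps27b it was 0.87 ± 0.50 and overlapped. The CYC1 to CYC7 ratio was 3.77 ± 0.44 in the wild type and -1.71 ± 1.62 in Δrpl7a, -0.39 ± 0.69 in Δrpl9a, 0.18 ± 1.36 in Δrpl6a and 1.77 ± 0.88 in Δrps27b, again without overlap, and 2.86 ± 0.66 in Δrpl15b with overlap. With 3 libraries against 3 the smallest p of a two-sided exact permutation test is 0.1, and over the 20 mRNA comparisons of ratios it became 0.125 after adjustment.

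On footprints the COX5A to COX5B ratio was 0.52 ± 0.27 in the wild type and 0.99 ± 0.08 in Δrpl7a, higher and not lower (exact permutation p = 0.1, the smallest possible). In Δrpl6a it was 1.45 ± 0.09 (n = 2), also above the wild type without overlap, although its mRNA ratio lay below. In Δrpl9a it was 0.88 ± 0.17 and in Δrpl15b -0.155 ± 1.02, both with overlap. The largest difference was in Δrps27b, at 4.44 ± 0.15. The CYC1 to CYC7 footprint ratio was 3.11 ± 0.51 in the wild type and 1.90 ± 0.17 in Δrpl7a, and above the wild-type mean at 3.97 ± 0.46 in Δrpl9a, 3.72 ± 0.20 in Δrps27b and 3.30 ± 0.64 (n = 2) in Δrpl6a, the strains whose mRNA ratio lay below it. In Δrpl15b it was 1.07 ± 2.75. For this CYC1 to CYC7 ratio all but the Δrpl7a value overlapped with the wild type. Over 10 footprint comparisons the smallest adjusted p was 0.25.

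**Figure D4:**
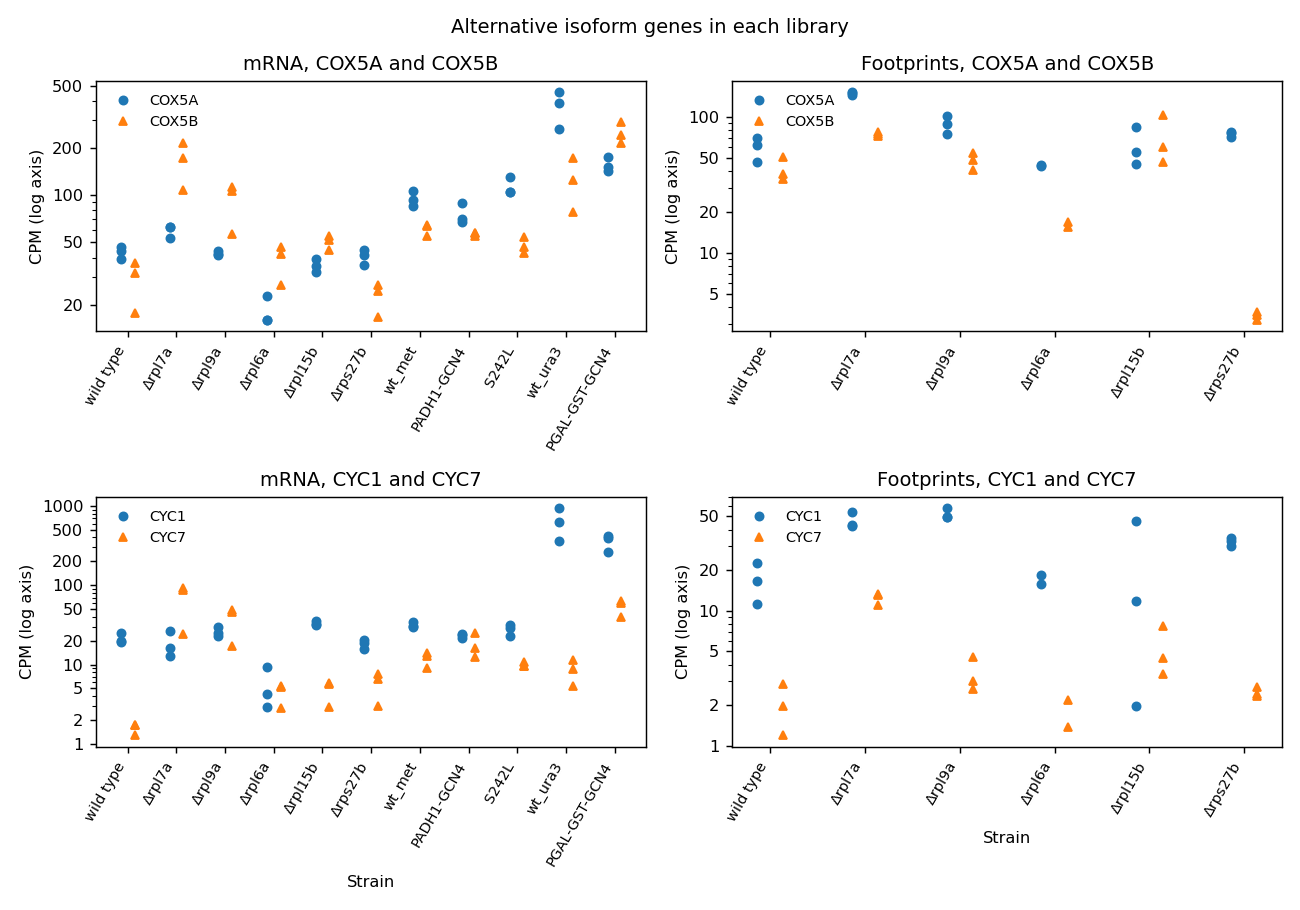
CPM of COX5A and COX5B (top) and of CYC1 and CYC7 (bottom) in each mRNA library (left) and footprint library (right), on log axes, by strain. COX5B footprints in Δrps27b lie at 3.23 to 3.66 CPM against 35.1 to 50.7 CPM in the wild type, and CYC7 mRNA in Δrpl7a lies at 24.1 to 93.1 CPM against 1.28 to 1.73 CPM.

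In Δrpl6a, a short-lived strain, 31 of 39 chain genes lay below the wild type, with the lowest complex median in complex IV (-0.67). On mRNA 5 members were called lower, with 1.06% of all genes called lower, and 1 higher, with 3.99% of all genes called higher, and the median was -0.32. With the replicate number as a block 2 members were called higher. COX4 (YGL187C), a zinc-binding subunit of complex IV, stood at 17.8, 18.8 and 28.1 CPM against 60.4, 56.6 and 62.2 CPM (log2 -1.46, SE 0.18, adjusted p = 2.35e-05). COX5A (YNL052W) stood at 16.0, 16.1 and 22.6 CPM against 39.2, 43.9 and 46.7 CPM (log2 -1.24, SE 0.14, adjusted p = 8.83e-06). Both genes were lower in every library.

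CYC1 showed the largest fall in Δrpl6a, to 4.28, 2.95 and 9.25 CPM from 20.1, 19.3 and 24.9 CPM (log2 -1.94, SE 0.31, adjusted p = 0.000257). CYT1 and COX12 were called at -1.05 and -1.01, and lost the call when libraries were left out: CYT1 without wild-type replicate 3 (-0.97) or Δrpl6a replicate 1 (-0.93) or 2 (-0.99), and COX12 without wild-type replicate 2 (-0.98) or Δrpl6a replicate 1 (-0.999) or 2 (-0.96). The count of members called lower was therefore 3 without Δrpl6a replicate 1 or 2. The gene called higher was ATP14 (YLR295C), a stalk subunit of ATP synthase, at 219, 232 and 231 CPM against 88.2, 97.9 and 105.1 CPM (log2 1.23, SE 0.10, adjusted p = 4e-07). ATP14 lies on chromosome XII, whose 468 tested genes had a median of 0.63 in this strain with 77.4% above 0, against -0.01 over the other genes. COX8, COX12 and SDH2 lie on the same chromosome, at 0.21, -1.01 and -0.65.

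On footprints in Δrpl6a, with 2 libraries, 1 member was called lower, COX5B at -1.36 (SE 0.25, adjusted p = 0.000461), and none higher, with 0.749% of all genes called lower. COX5B footprints were 15.4 and 16.8 CPM, under every wild-type library, although its mRNA was not called (0.42, adjusted p = 0.386). The count was 0 without Δrpl6a replicate 1 (-1.29, adjusted p = 0.0154) and 2 without wild-type replicate 3. The median of the members was -0.37. Translation efficiency was called for none by edgeR, with 0.579% of all genes called higher and 1.72% lower. At an unadjusted p below 0.05 it was higher for 6 members and lower for 2, with 12.7% and 13.7% of all genes, and DESeq2 called 0 higher and 1 lower, as did edgeR without mRNA replicate 2 of the wild type or 3 of Δrpl6a for the lower direction.

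In Δrps27b the genes called higher on mRNA were SDH1 (log2 1.54), SDH3 (1.09), ATP7 (1.29) and NDE1 (1.00), with 4.1% of all genes called higher, and none was called lower, with 1.44% of all genes called lower. ATP7 mRNA stood at 262, 259 and 252 CPM against 121, 107 and 88.6 CPM (SE 0.13, adjusted p = 2.08e-06). SDH1, SDH3 and ATP7 are the 3 members on chromosome XI. The 302 tested genes of that chromosome had a median of 0.95 in this strain, with 97.7% above 0, against -0.01 over the other genes, and on footprints the chromosome median was 0.90. The copy number of the chromosome was not tested. The median over the 39 members was 0.10, and -0.035 with scaling by total counts.

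SDH1 in Δrps27b was not called without wild-type replicate 1 (1.48, adjusted p = 0.0103) or Δrps27b replicate 2 (1.37, adjusted p = 0.01). NDE1 lay at the fold minimum and fell under it without wild-type replicate 1 (0.96) or 2 (1.00) or Δrps27b replicate 3 (0.90), with the replicate block (1.00), with only the groups compared (0.995) and with scaling by total counts (0.86). Without wild-type replicate 1 the count was therefore 2. SDH3 also dropped under the fold minimum, to 0.95, with scaling by total counts. CYT1 was at 22.4, 28.1 and 27.8 CPM, lower than the wild type by 0.86 (adjusted p = 0.00572) and under the fold minimum.

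The largest change of any member on footprints was that of COX5B in Δrps27b. Its footprints stood at 3.49, 3.66 and 3.23 CPM against 35.1, 50.7 and 38.4 CPM in the wild type, so the groups were about an order of magnitude apart (log2 -3.58, SE 0.27, adjusted p = 1.74e-09). Its mRNA stood at 26.6, 24.3 and 16.7 CPM against 32.0, 37.1 and 17.7 CPM and overlapped (adjusted p = 0.475). Translation efficiency of COX5B was called lower, at -3.23 (adjusted p = 2.49e-05), and that of CYT1 higher, at 1.44 (adjusted p = 0.00371), with 4.25% of all genes called lower and 1.5% higher. The CYT1 call was lost without mRNA replicate 3 (1.36, adjusted p = 0.0104) or footprint replicate 3 (1.33, adjusted p = 0.011) of the wild type, and without mRNA replicate 1 (1.35, adjusted p = 0.0144) or footprint replicate 1 (1.36, adjusted p = 0.0124) or 3 (1.40, adjusted p = 0.0107) of Δrps27b.

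On footprints in Δrps27b QCR6 was the 1 member called higher, at 1.05 (adjusted p = 0.00328), and COX5B the 1 called lower, with 3.54% and 5.45% of all genes called. QCR6 lost its call with scaling by total counts (0.90) and without footprint replicate 1 (1.02, adjusted p = 0.0148) or 3 (0.92, adjusted p = 0.0193) of the wild type or replicate 1 (0.89, adjusted p = 0.0241) or 3 (1.01, adjusted p = 0.0138) of Δrps27b. The count of members called higher was 2 without wild-type replicate 2. The F1 subunit genes ATP1 and ATP2 of ATP synthase had lower footprints by 0.53 and 0.40, under the fold minimum. ATP1 stood at 399 to 453 CPM against 556 to 662 CPM.

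In Δrpl15b no member was called on mRNA by edgeR, with 0.273% of all genes called higher and 0.219% lower. At an unadjusted p below 0.05 the test gave 7 members higher and 0 lower, with 7.91% and 5.74% of all genes, DESeq2 called 0, and with the replicate block 1 was called higher. The median was 0.15. On footprints the edgeR count was also 0, with 0.899% of all genes called higher and 0.487% lower, 19 members higher and 0 lower at an unadjusted p below 0.05 (11.3% and 10.5% of all genes), and 1 called higher by DESeq2. Without wild-type replicate 1 or Δrpl15b replicate 2 or 3 edgeR also called 1 higher. The footprint libraries of this strain spread widely: the members were shifted by 0.515 in replicate 1 and by 0.11 to 0.14 in the others. NDE1 footprints were 192, 69.2 and 37.6 CPM and CYC1 footprints 46.0, 11.9 and 1.97 CPM, so single libraries lay both above and below the wild type. Translation efficiency was called for none by edgeR or DESeq2, with 0.163% of all genes called higher and 0.0362% lower, and for 2 members higher and 0 lower at an unadjusted p below 0.05 (4.89% and 5.25% of all genes).

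Set against each other, the mean of the long-lived Δrpl7a and Δrpl9a exceeded the mean of the 3 short-lived strains for all 39 members on mRNA. The fit called 16 higher and none lower, with 7.03% of all genes called higher, and 36 passed without the fold minimum, against 23%. The error of this test comes from libraries within strains, which do not replicate lifespan class. A difference between lifespan classes as such was not tested. All 9 genes of complex III were among the 16, with CYT1 at 2.24, and none of ATP synthase. The median was 0.75. On footprints 5 were called higher (CYT1, COX5B, CYC1, CYC7 and NDE1) with 1.85% of all genes called higher, and 33 passed without the fold minimum, against 16.4%.

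Of these footprint calls CYC1 and NDE1 depended on single libraries. The count was 3 without Δrpl15b replicate 2 or 3, Δrpl7a replicate 2 or Δrpl9a replicate 2. CYC1 (1.14) was lost without any of 11 libraries, including Δrpl15b replicate 2 (1.05, adjusted p = 0.0101) and 3 (0.96), with edgeR adjusted p-values up to 0.023 among the others: Δrps27b replicates 2 and 3, Δrpl6a replicates 1 and 2, Δrpl7a replicates 1, 2 and 3 and Δrpl9a replicates 1 and 2. DESeq2 did not call it either (adjusted p = 0.0323). NDE1 (1.02) fell to 0.95 and 0.89 without Δrpl15b replicate 2 and 3, and to 1.00 without Δrpl7a replicate 2 or Δrpl9a replicate 2.

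Genes around the chain were counted from lists of the pathway. In Δrpl7a mRNA, where 12.3% of all genes were called higher and 6.36% lower, 4 of 4 further dehydrogenase genes that feed the chain were called higher: NDE2 (a second external NADH dehydrogenase, log2 4.33), CYB2 (L-lactate dehydrogenase, 3.57), GUT2 (glycerol-3-phosphate dehydrogenase, 3.01) and DLD1 (D-lactate dehydrogenase, 1.71). Of 7 accessory subunits and inhibitors 5 were called, among them INH1, the inhibitor of ATP synthase, at 3.28. Of 37 assembly factors 8 were called higher, of 11 genes of the tricarboxylic acid cycle 5, of 9 ubiquinone synthesis genes 3, and of 9 heme synthesis genes none higher and 1 lower. Of the 12 other glucose-repressed genes 7 were called. On footprints in Δrpl7a 3.67% of all genes were called higher, and no assembly factor, tricarboxylic acid cycle, ubiquinone or heme synthesis gene. Of the further dehydrogenase genes 2 of 4 were called higher on footprints, and of the accessory subunits and inhibitors 3 of 7. Of 11 glucose-repressed genes tested on footprints 3 were called higher, and their median was -0.23.

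Of 7 regulators of the chain 3 were called higher in Δrpl7a, again with 12.3% of all genes. HAP4 mRNA stood at 433, 483 and 320 CPM against 121, 153 and 122 CPM (log2 1.64, SE 0.19, adjusted p = 3.05e-06), HAP2, which encodes a DNA-binding subunit of the same complex, rose by 1.64, and ROX1, the repressor of hypoxic genes such as COX5B, rose by 1.19. HAP1, the heme-responsive activator, differed by -0.23 and was not called. HAP4 footprints stood at 30.0 to 32.3 CPM against 13.6 to 21.5 CPM, a change of 0.86 under the fold minimum. In Δrpl9a HAP4 and HAP2 mRNA rose by 1.43 and 1.01. In Δrpl6a ROX1 fell by 1.07, and IDH1 and IDH2, the subunits of mitochondrial isocitrate dehydrogenase, rose by 1.51 and 1.53.

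When Gcn4 was overexpressed from the ADH1 promoter 37 of 39 chain genes lay below wt_met, COX4 lowest. The mRNA of GCN4 itself was higher by 1.86 in PADH1-GCN4 than in wt_met. Of the members 4 were called lower and none higher, with 1.98% of 5547 genes called lower, and 26 passed as lower without the fold minimum, against 15.8%. The median was -0.51. COX4 stood at 30.7, 31.6 and 26.8 CPM against 90.8, 94.7 and 88.5 CPM in wt_met (log2 -1.63, SE 0.09, adjusted p = 1.08e-07). The libraries of each strain lay close together and far from those of the other.

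The other genes called lower in PADH1-GCN4 were ATP17 (-1.20) and ATP20 (-1.05), membrane subunits of ATP synthase, and QCR10 (-1.03). ATP17 stood at 39.5, 30.7 and 35.2 CPM against 79.1, 68.5 and 95.8 CPM, with no overlap. QCR10 fell under the fold minimum without PADH1-GCN4 replicate 3 (-0.96), and ATP20 without wt_met replicate 3 (-0.97) or PADH1-GCN4 replicate 3 (-0.99), so the count was 2 without PADH1-GCN4 replicate 3. The exceptions to the fall were NDE1 and CYC7, above 0 at 0.49 (adjusted p = 0.0023) and 0.58 (adjusted p = 0.0647). HAP4 mRNA differed by 0.25 and was not called.

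With the S242L substitution 31 of 39 chain genes lay below wt_met. None was called by edgeR or DESeq2, with 1.35% of all genes called lower, and 4 passed as lower without the fold minimum, against 4.89%. At an unadjusted p below 0.05 there were 3 higher and 16 lower, with 18.6% and 17.4% of all genes, and the median was -0.20. Compared directly with S242L, PADH1-GCN4 had 1 member called lower, with 0.613% of all genes called lower, and 15 without the fold minimum, against 9.67%, and the median was -0.40. The called gene was COX4, at 67.2, 60.7 and 61.2 CPM in S242L (log2 -1.13, SE 0.09, adjusted p = 2.18e-06), so its level in S242L lay between those of wt_met and PADH1-GCN4. GCN4 mRNA was higher in S242L than in wt_met by 2.42. The S242L libraries occur in a table of their own beside repeated wt_met columns, and a difference in sequencing run cannot be told apart from the substitution.

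**Figure D5:**
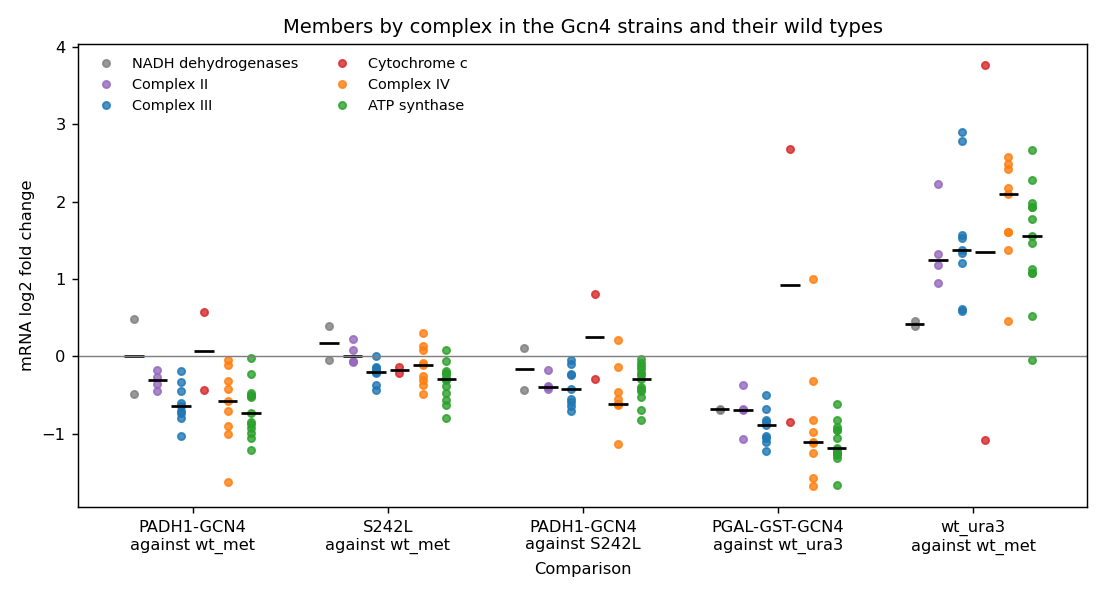
Log2 fold changes of the 39 members, by complex, in 5 comparisons of the Gcn4 strains and their controls, with 1 point per gene and black bars at the complex medians. COX4 is the lowest point of PADH1-GCN4 against wt_met at -1.63, and CYC7 is the highest of PGAL-GST-GCN4 against wt_ura3 at 2.68.

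In PGAL-GST-GCN4 37 of 39 chain genes lay below wt_ura3, with the lowest complex medians in ATP synthase (-1.19) and complex IV (-1.11). GCN4 mRNA was higher by 5.32 than in wt_ura3. Of the members 16 were called lower, with 9.45% of 5574 genes called lower, and 1 higher, with 14% of all genes called higher, and 24 passed as lower without the fold minimum, against 14.7%. With the replicate block 2 were called higher. The median was -0.95. Of ATP synthase 8 of 13 genes were called lower, of complex IV 4 of 9, of complex III 3 of 9 and of complex II 1 of 4.

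COX6 (YHR051W), a subunit of complex IV, showed the largest fall, to 140, 110 and 130 CPM from 410.7, 272 and 533 CPM (log2 -1.68, SE 0.25, adjusted p = 0.000558). ATP5 stood at 472, 336 and 462 CPM against 1435, 881 and 1715 CPM (log2 -1.67, SE 0.28, adjusted p = 0.00113), and COX4 at 294, 227 and 301 CPM against 881, 537 and 1030 CPM (log2 -1.58). In each case wt_ura3 replicate 2 was the lowest control library and still stood above every PGAL-GST-GCN4 library. CYC7 was higher, at 59.8, 39.9 and 63.7 CPM against 5.35, 8.71 and 11.4 CPM (log2 2.68, SE 0.31, adjusted p = 0.000136).

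The count depended on the libraries used. Members shifted by -0.319 to 0.331 among the 3 libraries of the control wt_ura3. Of the members 9 were called lower without wt_ura3 replicate 3 and 25 without wt_ura3 replicate 2, and 2 were called higher without wt_ura3 replicate 3. Without replicate 3 the calls of QCR6, QCR8, COX8, ATP3, ATP17, ATP20 and SDH3 were lost, at values from -0.997 to -0.88. QCR8 and ATP20 also lost their calls without wt_ura3 replicate 1 or any 1 of the PGAL-GST-GCN4 libraries, with edgeR adjusted p-values from 0.0114 to 0.0366. Leaving out PGAL-GST-GCN4 replicate 1 ended the calls of QCR6 (-0.97), ATP3 (-0.99) and SDH3 (-0.99), and leaving out its replicate 2 those of COX8 (-1.05, adjusted p = 0.0117) and ATP17 (-1.12, adjusted p = 0.0115).

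The Gcn4 comparisons with different controls share no libraries. Of the 39 members 36 (92.3%) lay below 0 both in PADH1-GCN4 against wt_met and in PGAL-GST-GCN4 against wt_ura3, against 36.9% of 5518 genes tested in both. Of these COX4, ATP17 and ATP20 were called lower in both, among 32 genes in all. INH1 fell by 2.59 and 2.64, and NDE2 rose by 1.44 and 6.59.

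The controls themselves stood far apart. In wt_ura3 30 members were called higher than in wt_met, with 15.5% of 5563 genes called higher, and 1 lower, with 11.8% of all genes called lower, and the median was 1.54. CYC1 was at 631, 356 and 940 CPM against 30.1, 34.1 and 30.2 CPM (log2 3.77, SE 0.32, adjusted p = 3.98e-05), and the complex III genes QCR10 and QCR9 were higher by 2.90 and 2.79. CYC7 was lower by 1.08 on the log2 scale (adjusted p = 0.00936), and lost its call with scaling by total counts (-0.51, adjusted p = 0.12) and without wt_ura3 replicate 1 (-0.83) or 2 (-1.10, adjusted p = 0.0225) or without any 1 of the wt_met libraries, with adjusted p-values from 0.0104 to 0.0433. ATP4 dropped to 0.97 without wt_ura3 replicate 3, and ATP14 to 0.99 without that library or 1.00 without wt_met replicate 3.

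GAL1, a galactose-induced gene, stood at 5316 to 8555 CPM in wt_ura3 and 3575 to 3813 CPM in PGAL-GST-GCN4, against 2.41 to 3.69 CPM in wt_met. All 3 galactose genes tested were called higher in wt_ura3 than in wt_met, with a median of 10.5 on the log2 scale. The paper describes the plasmid of PGAL-GST-GCN4 as galactose-inducible. The medium of the plasmid strains is not given apart from the general statement, and these values leave glucose unlikely for them. Carbon source, plasmid, met15 and URA3 genotype cannot be told apart in this comparison. Assembly factors moved with the members here, with 20 of 37 called higher. All 5 of the mitochondrially encoded genes that could be tested were called higher. The study isolated poly(A)+ RNA, and its recovery of mitochondrially encoded mRNA was not tested. Of 12 glucose-repressed genes 8 were called higher and 1 lower. Other lists moved less. Of 11 tricarboxylic acid cycle genes 3 were called higher (median 0.02), and of 7 accessory subunits and inhibitors 3 (median -0.15). No ubiquinone synthesis gene was called, and of 9 heme synthesis genes 2 were called lower.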

How the data were processed

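The authors deposited raw read counts per gene, 1 column per library. Per the study's methods they trimmed reads with the FASTX toolkit, used segemehl for alignment to transcripts and kept uniquely placed reads, for Ribo-seq only within coding regions and at lengths with 3-nucleotide periodicity. The submitters' processing notes name the build sacCer3 and DESeq2. Use of strand in counting is not stated, and unique alignment leaves less certain counts for similar genes such as COX5A and COX5B. Deposited tables of the authors' log2 fold changes were not used. The wt_met columns were identical in 2 tables and entered once, 0 columns of per-sample values were left out, and no replicates agreed within sampling noise (lowest chi-square per gene 3.11). The members, the lists of other genes and the tests were chosen with earlier results of these data known.

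Tests used edgeR 4.0.16 in R 4.3.3 (TMM, filterByExpr, quasi-likelihood test, two-sided) with Benjamini-Hochberg adjustment over all genes tested, and calls required an adjusted p below 0.01 and over 2-fold change. The 18 mRNA libraries and the 17 Ribo-seq libraries of the deletion set were each fitted together, and translation efficiency was the interaction of assay and strain. PADH1-GCN4, PGAL-GST-GCN4 and wt_ura3 were fitted with the control named beside each, and S242L with PADH1-GCN4 and wt_met. Steps were tested on simulated data. Genes named individually were mainly the called members, the members of the isoform pairs and the highest and lowest members. Also named were members on chromosome XI in Δrps27b and XII in Δrpl6a, F1 subunit genes, NDE1, NDI1 and HAP4. From the other lists called genes were named, and HAP1 although it was not called. Alternatives were other scaling, no filter on low counts, DESeq2 1.42.0, no fold minimum, only the groups compared, leaving out members on chromosomes XI and XII, a replicate block and leaving out each library. Gene symbols came from RefSeq R64, with 5741 of 5743 identifiers matched for mRNA and 5664 of 5666 for Ribo-seq. Figures were drawn with matplotlib 3.10.9 in Python 3.11.15.

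Same-numbered libraries deviated together from their group means in the deletion mRNA set (correlations 0.191 to 0.616). They also did so between PGAL-GST-GCN4 and wt_ura3 (0.366 to 0.439). They did not for the footprints (-0.125 to 0.144) or the wt_met strains (-0.503 to 0.342). Where they did, the numbers were read as pairs from the data and not from the labels. The main tests did not use this pairing, and the replicate block was run only as an alternative. In every deletion mRNA group replicate 3 differed most from the others. In the wild type the chi-square per gene was 27.6 and 23.9 with replicate 3, against 3.84 between replicates 1 and 2.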

Additional observations from a re-analysis of the deposited data

Results flagged for a closer look

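Genes are listed here where a test of the difference between strains called it. On mRNA the mean of Δrpl7a and Δrpl9a exceeded the mean of Δrpl6a, Δrpl15b and Δrps27b, in log2 units, by 1.13 for QCR2, 1.196 for COR1, 2.24 for CYT1, 1.27 for RIP1, 1.18 for QCR6, 1.23 for QCR7, 1.195 for QCR8, 1.30 for QCR9 and 1.42 for QCR10 in complex III. In complex IV it did so by 1.80 for COX5B and 1.14 for COX7, and among the remaining members by 3.34 for CYC7, 1.67 for SDH1, 1.47 for SDH2, 1.33 for SDH4 and 2.03 for NDI1. These 16 calls held under every alternative run. On footprints the same difference was 1.45 for CYT1, 1.93 for COX5B, 1.14 for CYC1, 1.196 for CYC7 and 1.02 for NDE1, of which 3 held under every alternative. COX5B footprints combine a rise in Δrpl7a with falls in Δrpl6a and Δrps27b. Between PADH1-GCN4 and S242L, COX4 mRNA differed by -1.13 and held under every alternative.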

How the results depend on the processing

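No gene called among the members changed direction under any alternative. With no fold minimum the counts of members called became 36 for Δrpl7a mRNA, 17 for Δrpl9a, 10 lower for Δrpl6a, 36 for long-lived against short-lived, 26 for PADH1-GCN4, 4 for S242L and 15 for PADH1-GCN4 against S242L. For footprints they became 37 for Δrpl7a, 10 for Δrpl9a, 7 lower for Δrpl6a, 3 for Δrpl15b, 6 higher and 7 lower for Δrps27b and 33 for long-lived against short-lived, and for Δrpl9a translation efficiency 7.

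With scaling by total counts the median of all genes was 0.14 in Δrpl7a and -0.12 in Δrps27b on mRNA. On footprints it was -0.13 in Δrpl6a, -0.17 in Δrps27b and 0.15 for long-lived against short-lived. It was -0.15 in S242L, 0.10 for PADH1-GCN4 against S242L, and 0.61 in wt_ura3. The medians of the members became 1.00 in Δrpl7a, 0.20 in Δrpl15b, -0.035 in Δrps27b, 1.02, -0.47 and -0.051 in the footprints of Δrpl7a, Δrpl6a and Δrps27b, -0.55 in PADH1-GCN4, -0.35 in S242L, -0.30 for PADH1-GCN4 against S242L and 2.11 in wt_ura3. Both Δrps27b medians thereby changed sign. Counts became 2 for Δrps27b mRNA, 2 lower and 0 higher for the footprints of Δrpl6a and Δrps27b, 9 for long-lived against short-lived footprints, 1 lower for Δrpl6a translation efficiency, 2 higher for PGAL-GST-GCN4 and 0 lower for wt_ura3.

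The replicate block gave 2 members higher in Δrpl6a, 1 in Δrpl15b and 2 in PGAL-GST-GCN4 on mRNA, 2 higher in Δrps27b footprints, 1 lower in Δrpl6a translation efficiency and 2 higher in Δrps27b translation efficiency, and changed no other count by over 1.5 times. The footprint libraries share only a number. DESeq2 gave 1 higher for Δrpl15b footprints and 1 lower for Δrpl6a translation efficiency. With only the groups compared, Δrps27b translation efficiency had 2 higher and 2 lower. Without members on chromosomes XI and XII the medians were 0.99 and -0.32 for footprints of Δrpl7a and Δrpl6a and -0.59 for PADH1-GCN4.

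Leaving out 1 library gave these ranges on mRNA: Δrpl9a median 0.44 to 0.56 and count 6 to 13, Δrpl6a lower 3 to 5, Δrpl15b median 0.13 to 0.19, Δrps27b higher 2 to 4, PADH1-GCN4 median -0.56 to -0.48 and lower 2 to 6, S242L median -0.22 to -0.17, PADH1-GCN4 against S242L median -0.42 to -0.34, PGAL-GST-GCN4 higher 1 to 2 and lower 9 to 25, and wt_ura3 lower 0 to 1. On footprints the ranges were 0.88 to 1.03 for the Δrpl7a median, -0.38 to -0.29 for the Δrpl6a median and 0 to 2 lower, 0 to 1 higher in Δrpl15b, 0 to 2 higher in Δrps27b and 3 to 7 for long-lived against short-lived. For translation efficiency they were -0.38 to -0.17 for the Δrpl9a median, -0.038 to 0.12 for the Δrpl6a median with 0 to 1 lower, and 0 to 1 higher in Δrps27b. The COX5A to COX5B difference in Δrps27b ran from -0.046 to 0.60, and the CYC1 to CYC7 difference from -0.26 to 0.64 in Δrpl6a footprints and from -0.091 to 0.23 in S242L. The cause of these changes was not tested. Depth limited CYC7, at 1.28 to 1.73 mRNA CPM in the wild type.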
